A study of Mus musculus with 15 samples.

Results

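DNA damage checkpoint and repair genes were followed in mouse bone marrow-derived macrophages (BMDMs) after activation of TLR3 or TLR7. The set is a list of 38 gene symbols, out of 25814 genes in the deposited tables, and each symbol was found there by its name. BMDMs were grown from marrow of the tibias and femurs of adult wild-type C57BL/6 mice over 6 days, in DMEM with 10% serum, 50 µM β-mercaptoethanol and 20% medium conditioned by L929 fibroblasts, which release the macrophage growth factor M-CSF. Cells were left as control, or received for 6 h either 10 µg/ml poly(I:C), a double-stranded RNA mimic sensed by TLR3, or 4 µM CL075, a small-molecule agonist of TLR7. The 3 groups had 5 libraries each, and the question was how far the responses to the ligands differ. The labels name the control group as ctrl with no vehicle, and nothing says that a replicate is a separate mouse or culture, so p-values measure the spread between these libraries, which may be technical.

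The DNA damage response joins a signaling arm to several repair pathways. The MRE11-RAD50-NBN complex brings the kinase ATM to broken DNA ends, the kinase ATR responds to single-stranded DNA at stalled forks, and they act through CHEK2 and CHEK1. Breaks are mended by homologous recombination or end joining, crosslinks by the Fanconi anemia proteins, and altered or mismatched bases by excision and mismatch repair. Macrophages make reactive oxygen species that can damage DNA, and many repair genes are transcribed most strongly in dividing cells.

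Library totals ran from 21816291 to 32487565 counts, and libraries of a group correlated with r between 0.991 and 0.995 across genes. The normalization factors (TMM, the trimmed mean of M-values) were 1.33 to 1.38 in control, 1.03 to 1.09 in CL075 and 0.683 to 0.721 in poly(I:C) libraries, so the scale of the libraries weighs most on comparisons with poly(I:C). The macrophage markers Lyz2 (0.0028 with poly(I:C) and -0.07 with CL075, as log2 fold changes) and Csf1r (-0.31 and 0.08) were abundant and not called, and Adgre1 was higher with CL075 (0.59). Over the list of 11 macrophage markers tested, 6 were called higher and 0 lower with poly(I:C), with values up to 2.67, and 5 higher and 1 lower with CL075, with values from -2.06 to 2.35. Markers of other cells moved with the groups in part. Their summed levels, in CPM (counts scaled to the TMM-normalized library size), ranged for neutrophil genes over 24.9 to 103 in control, 118 to 239 in CL075 and 44.96 to 198 in poly(I:C) libraries, for dendritic cell genes over 0.955 to 1.49, 1.26 to 1.85 and 13.5 to 17.8, and for B cell genes over 11.6 to 13.6, 2.85 to 3.90 and 3.45 to 4.52. With poly(I:C), 2 of 9 neutrophil genes and 3 of 4 dendritic cell genes tested were higher and 1 of 2 B cell genes lower, and in CL075 cells these counts were 3, 1 and 1. Of all genes tested, poly(I:C) raised 25.4% and lowered 30.5%, while CL075 raised 17.6% and lowered 21.5%. The share of neutrophil genes called higher was below that of all genes with poly(I:C) (22.2%) and above it with CL075 (33.3%). These lists are short, so their shares are rough. The T and NK cell list ranged over 46.7 to 57.1, 37.4 to 47.8 and 61.4 to 75.1 CPM in the same order, with 855 to 2189 counts of Cd4 in every library and at most 1 count of Trac or Cd3e. Hemoglobin transcripts of 4 genes added up to 727 to 879 counts in 3 libraries (CL075 replicates 2 and 3, poly(I:C) replicate 3) and to at most 13 in the others. The part of these cells in the results was not tested, and in bulk RNA fewer cells of a type and less RNA per cell cannot be told apart.

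The 38 genes fell more often than they rose with either ligand, and those that rose did so with poly(I:C). A gene was called when edgeR gave an adjusted p under 0.05, the change exceeded 1.5-fold, and one of the compared groups averaged over 0.5 TPM (transcript abundance scaled by gene length and library). All 38 passed the filter on low counts. With poly(I:C), 8 members were called higher, against 25.4% of all 11804 genes tested, and 22 lower, against 30.5%. With CL075, 0 members were called higher, against 17.6% of all genes, and 20 lower, against 21.5%. At an unadjusted p under 0.05 in edgeR, 4 members (Nbn, Xrcc2, Xrcc4 and Lig3) were higher with CL075, each by less than 1.5-fold, and DESeq2 also called 0. Between the ligands, 9 members were higher in poly(I:C) than in CL075 cells, against 22.7% of all genes, and 11 lower, against 23.7%. The median log2 fold change of the members was -0.66 with poly(I:C) and -0.68 with CL075, while over all genes it was -0.08 and -0.02. Both comparisons with control use the same control libraries.

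By their combined calls, 5 members rose with poly(I:C) and fell with CL075, 3 rose with poly(I:C) and were not called with CL075, 13 fell with both, 9 fell with poly(I:C) and were not called with CL075, 2 fell with CL075 and were not called with poly(I:C), and 6 were called with neither. How often all genes showed each combination was not counted, so these numbers do not tell whether the members are unusual in them. As a share of library counts the members held 0.0710% ± 0.0018 (SD, n = 5, as for every ± below) in control, 0.0398% ± 0.0034 with CL075 and 0.0384% ± 0.0012 with poly(I:C). This share is on the scale of library totals. On the TMM scale their summed level ranged over 514 to 538 CPM in control, 342 to 404 in CL075 and 532 to 569 in poly(I:C) libraries, so the sum was below control with CL075 and overlapped it with poly(I:C). The overlap rests on 1 gene, Atm, which averaged 26.4 CPM in control and 155 with poly(I:C). Without Atm the poly(I:C) sum would also lie below control. The combined calls are those on TMM, and with library totals 30 members were lower with poly(I:C) and 27 with CL075. On that scale the median of all genes also moved down, so these counts do not mark out the members.

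**Figure D1:**
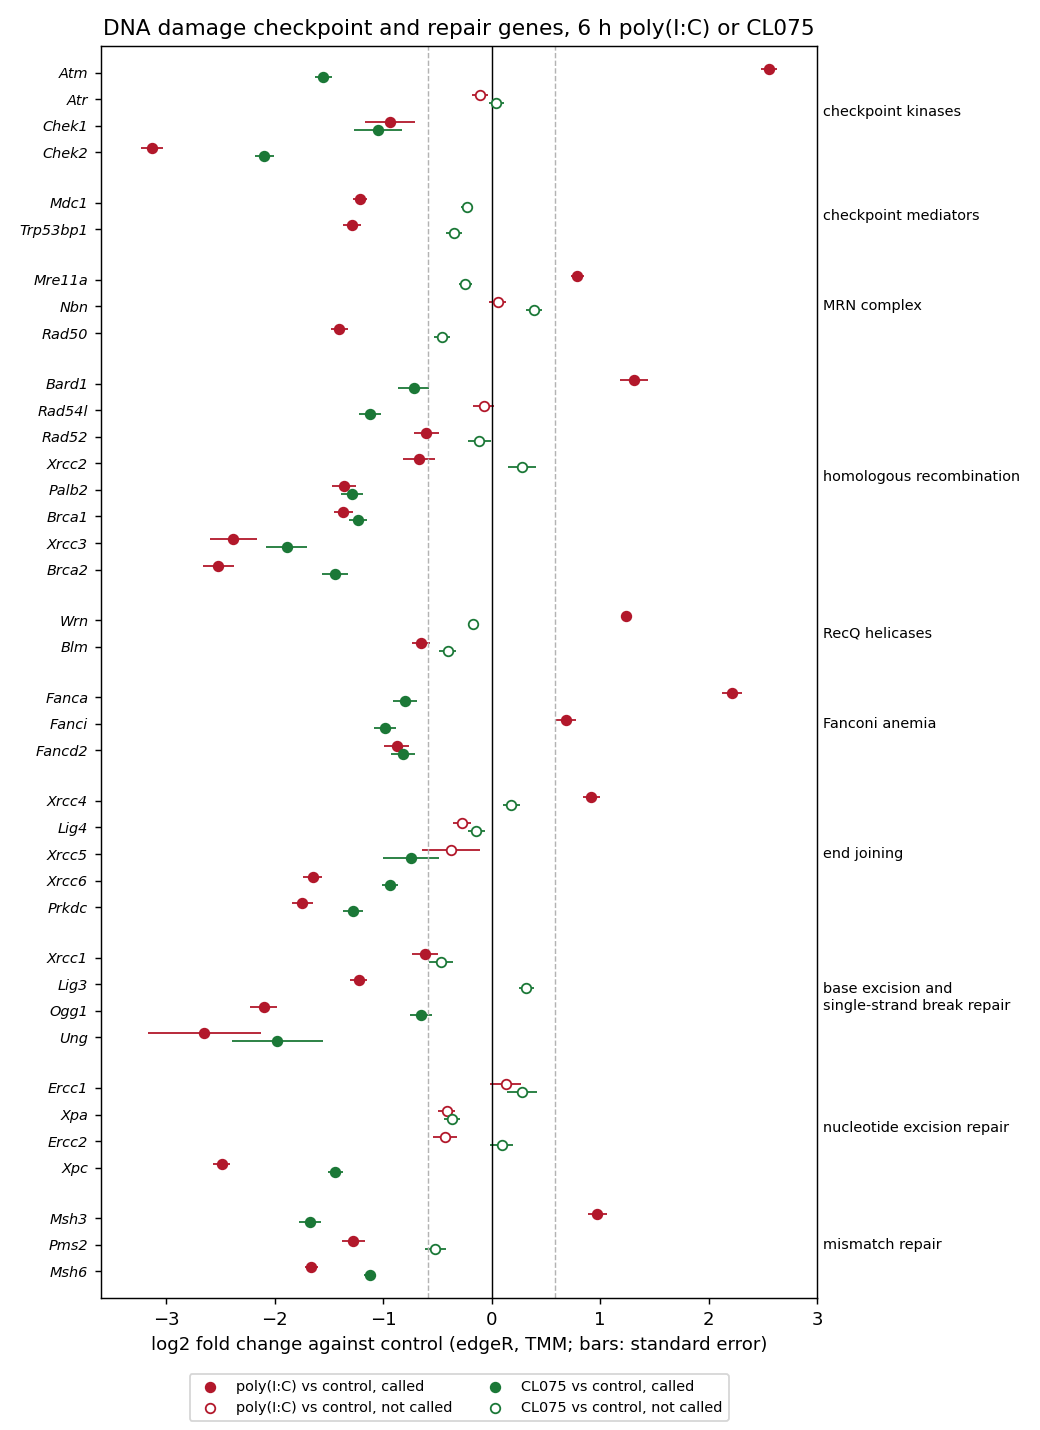
Log2 fold change against control (x axis, edgeR with TMM, bars are standard errors) of each of the 38 genes, grouped by role, for poly(I:C) and CL075, with called and uncalled values marked apart and lines at a 1.5-fold change. The 8 genes that rose with poly(I:C) are led by Atm at 2.55, and no CL075 value lies past the upper line.

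The 5 genes that moved in opposite directions were Atm, Bard1, Fanca, Fanci and Msh3. Atm, the kinase that starts the response to double-strand breaks, read 26.6, 25.1, 27.4, 27.5 and 25.3 CPM in the control libraries, 10.6, 8.93, 8.88, 6.90 and 9.68 CPM with CL075 and 149.9, 150.1, 169.9, 148 and 156 CPM with poly(I:C). The groups were far apart, with every poly(I:C) library above and every CL075 library below every control library. The rise with poly(I:C) was 5.87-fold (log2 fold change 2.55, standard error 0.07, adjusted p = 2.1e-16 by edgeR) and the fall with CL075 2.93-fold (-1.55, standard error 0.08, adjusted p = 3.4e-12). Poly(I:C) cells exceeded CL075 cells by 17.2-fold (4.10, standard error 0.08, adjusted p = 4.3e-18). Groups without overlap were common, at 75.9% of all genes tested between poly(I:C) and control libraries. The share was 65.2% between CL075 and control and 66.2% between the ligands. Of the 38 members, 8 lay wholly above and 23 wholly below control with poly(I:C), and 1 and 27 with CL075. Between the ligands these counts were 9 and 14.

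Fanca, a subunit of the Fanconi anemia core complex, read 3.53, 2.87, 3.38, 3.23 and 2.996 CPM in control, 1.79, 2.18, 1.62, 1.61 and 1.94 CPM with CL075 and 15.8, 14.8, 12.2, 16.7 and 14.6 CPM with poly(I:C). Its groups did not overlap, and it was 4.64-fold higher with poly(I:C) (2.21, standard error 0.09, adjusted p = 6.7e-14 by edgeR) and 1.74-fold lower with CL075 (-0.80, standard error 0.11, adjusted p = 4.0e-06). Msh3, a mismatch repair protein that detects insertion and deletion loops, read 9.69, 10.5, 10.5, 9.40 and 8.85 CPM in control, 3.49, 2.32, 2.81, 3.48 and 3.28 CPM with CL075 and 18.03, 19.4, 17.1, 20.2 and 21.3 CPM with poly(I:C). Its groups were also apart, at 0.97 (standard error 0.09) with poly(I:C) and -1.67 (standard error 0.10) with CL075.

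Bard1, the partner of BRCA1 in a ubiquitin ligase, read 3.78, 3.21, 2.95, 3.80 and 3.41 CPM in control, 2.72, 1.79, 1.35, 2.35 and 2.28 CPM with CL075 and 9.07, 8.05, 9.32, 8.71 and 7.44 CPM with poly(I:C). All poly(I:C) libraries were above control (1.31, standard error 0.13, adjusted p = 1.5e-08 by edgeR), and all CL075 libraries were below it (-0.72, standard error 0.14, adjusted p = 0.00016), the highest of them close to the lowest control library. Without the 3 libraries that hold hemoglobin counts the CL075 value of Bard1 was -0.49 and was not called. Fanci, which is monoubiquitinated together with FANCD2 at crosslinks, read 4.56, 3.74, 3.95, 4.72 and 3.92 CPM in control, 2.25, 2.18, 1.78, 2.42 and 1.97 CPM with CL075 and 6.84, 6.24, 6.25, 7.02 and 7.09 CPM with poly(I:C). The rise of Fanci (0.68, standard error 0.09, adjusted p = 1.4e-06) was the smallest of the 5 and its fall (-0.98, standard error 0.10, adjusted p = 5.7e-08) was larger, with no overlap between groups. The rise of Fanci was not called with upper-quartile factors (0.36) or against a 1.5-fold change (glmTreat), nor was the CL075 fall of Bard1 with glmTreat.

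**Figure D2:**
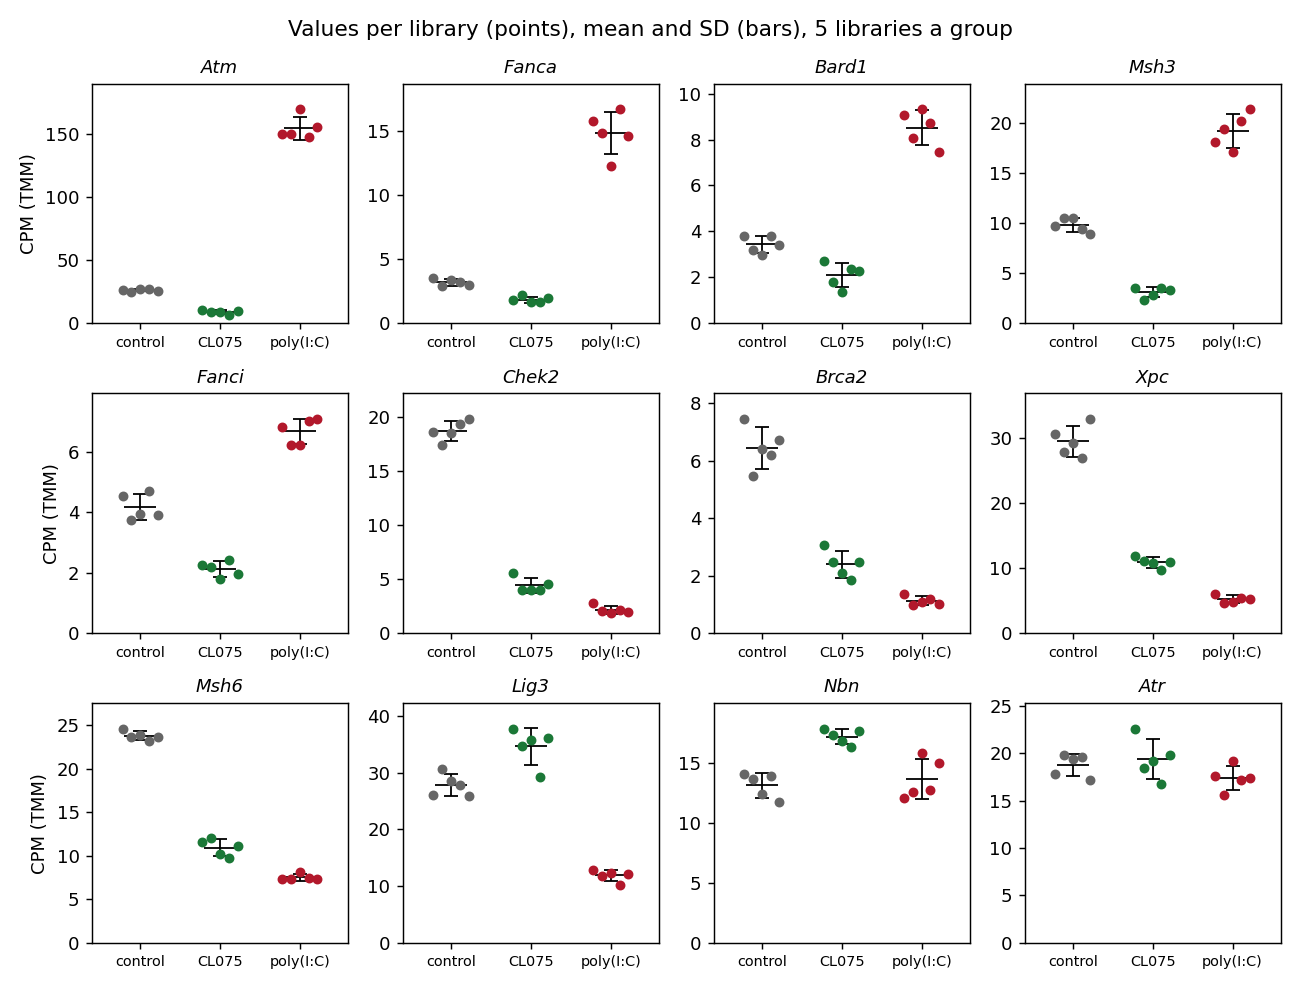
CPM (y axis, TMM-normalized, from 0) of selected members in the 5 libraries of each group, 1 panel a gene, with points for libraries and the mean and SD. Atm averaged 155 CPM with poly(I:C) against 26.4 in control and 9.01 with CL075, with no overlap between groups.

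The rises with poly(I:C) depended on the scale of the libraries, and the CL075 falls of these 5 genes were called on every scale tried. With library totals as the scale the median log2 fold change of all genes with poly(I:C) went from -0.08 to -1.02, Atm (1.62) and Fanca (1.28) were the members still called higher, and 30 were lower. On that scale Fanci (-0.25), Mre11a (-0.15) and Xrcc4 (-0.018) changed sign, and Bard1 (0.37), Msh3 (0.04) and Wrn (0.30) were not called. With Hprt as the scale, where the median of all genes was -0.63, Atm, Fanca, Bard1 and Wrn were called higher and 28 members lower. With upper-quartile factors, where it was -0.41, 6 were higher and 26 lower. All 8 genes lay above the median of all genes on each of these scales. That follows from their choice as higher on TMM, because a change of scale moves every gene by nearly the same amount. It is therefore no test of the rises.

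**Figure D3:**
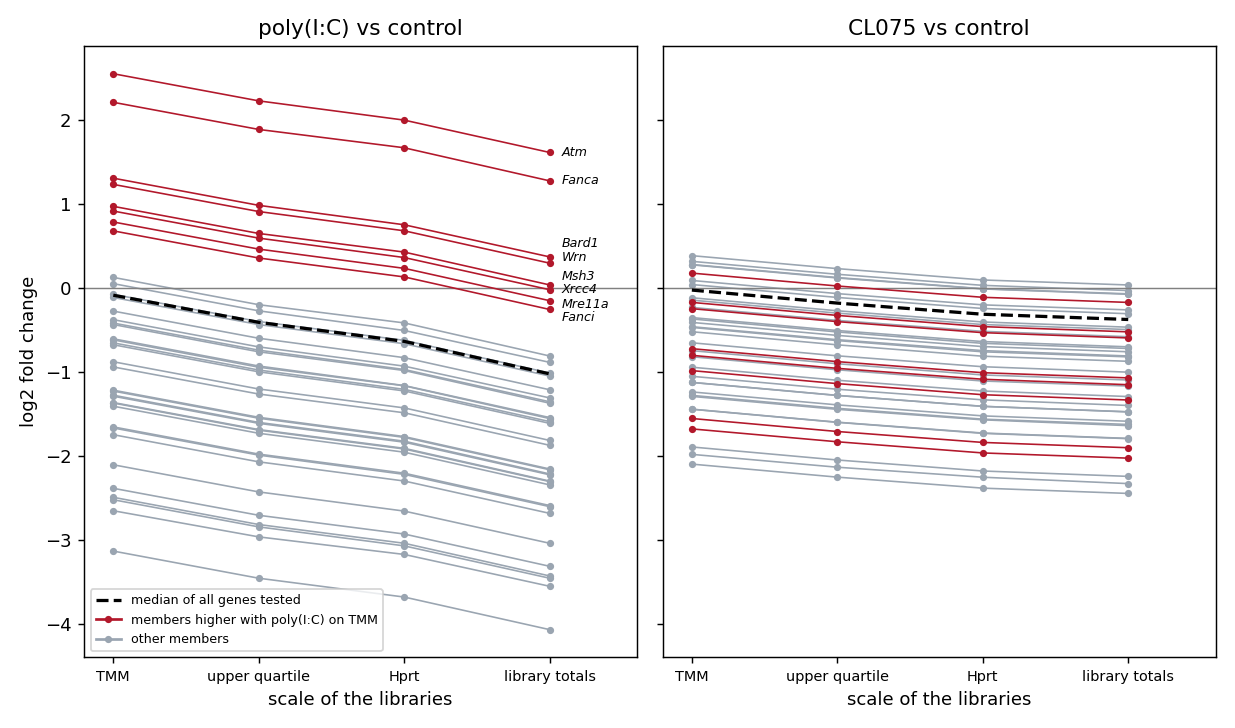
Log2 fold change (y axis) of the 38 genes under 4 ways to scale the libraries (x axis), for each ligand against control, with the median of all genes tested drawn beside them. That median moved from -0.08 with TMM to -1.02 with library totals for poly(I:C), and from -0.02 to -0.37 for CL075.

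The promoters of 4 of these genes and of Chek2, the member with the largest fall in each comparison with control, are printed to show which short elements they hold. RefSeq entries (GRCm38.p6), from 250 bases before to 50 bases after a start site, were matched by symbol for 31 of the 38 genes, with 33 entries in all. Capitals mark an E2F motif (TTTCCCGC, TTTGGCGC, TTTCGCGC or TTTGCCGC) or a GC box (GGGCGG, a motif of SP1 family proteins) on either strand, and each sequence reads 5′ to 3′ on the strand of its gene.
Atm, chr9:53536622-53536921, minus strand: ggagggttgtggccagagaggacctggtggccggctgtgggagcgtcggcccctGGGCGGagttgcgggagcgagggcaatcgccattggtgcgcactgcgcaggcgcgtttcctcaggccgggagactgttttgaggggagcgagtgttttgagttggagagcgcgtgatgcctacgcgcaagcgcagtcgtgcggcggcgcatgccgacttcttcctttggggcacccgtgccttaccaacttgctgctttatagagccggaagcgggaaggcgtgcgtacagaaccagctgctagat
Fanca, chr8:123318527-123318826, minus strand: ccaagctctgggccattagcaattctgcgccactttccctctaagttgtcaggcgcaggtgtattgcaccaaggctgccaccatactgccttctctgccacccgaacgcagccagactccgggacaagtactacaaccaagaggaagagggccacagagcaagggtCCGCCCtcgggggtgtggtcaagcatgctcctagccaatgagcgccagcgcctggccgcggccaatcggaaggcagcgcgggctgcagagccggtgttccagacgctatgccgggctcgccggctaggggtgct
Bard1, chr1:71102923-71103222, minus strand: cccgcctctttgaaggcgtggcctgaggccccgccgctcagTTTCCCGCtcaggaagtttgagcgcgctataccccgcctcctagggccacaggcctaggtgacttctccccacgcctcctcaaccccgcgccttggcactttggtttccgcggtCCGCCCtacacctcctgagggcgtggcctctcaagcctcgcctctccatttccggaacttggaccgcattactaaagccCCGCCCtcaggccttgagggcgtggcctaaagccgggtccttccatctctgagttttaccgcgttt
Fanci, chr7:79392088-79392387, plus strand: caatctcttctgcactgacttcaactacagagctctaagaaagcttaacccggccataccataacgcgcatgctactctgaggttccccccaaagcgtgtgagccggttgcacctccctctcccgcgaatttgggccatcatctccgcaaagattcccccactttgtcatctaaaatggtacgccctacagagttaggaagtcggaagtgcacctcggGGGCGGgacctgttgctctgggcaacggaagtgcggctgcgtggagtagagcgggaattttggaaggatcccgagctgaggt
Chek2, chr5:110839733-110840032, plus strand: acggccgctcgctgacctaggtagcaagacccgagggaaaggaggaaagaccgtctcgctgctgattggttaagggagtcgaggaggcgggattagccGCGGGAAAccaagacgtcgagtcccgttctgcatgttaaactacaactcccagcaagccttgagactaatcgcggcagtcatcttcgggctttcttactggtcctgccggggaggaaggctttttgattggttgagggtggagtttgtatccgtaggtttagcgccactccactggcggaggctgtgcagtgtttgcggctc

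Each of the 5 opposing genes had a GC box in this window, and Msh3 had 4. A GC box was found in 75.8% of member promoters, in 61.7% of the promoters of genes tested and in 35.7% of all 32851 promoters. E2F motifs were in 7 members (Bard1, Brca2, Chek2, Mdc1, Msh3, Msh6 and Xrcc6), which is 21.2% of member promoters, against 3.89% for genes tested and 2.26% for all. Msh3 had 2 of them that overlap each other, from -202 to -195 and from -198 to -191 relative to the start. Of these 7 genes, Bard1 and Msh3 rose with poly(I:C) and the other 5 fell. The interferon response motif GAAANNGAA was in 0 of 7 risers with an entry and in 6 of 17 genes lower with poly(I:C), against 7.59% for genes tested and 8.56% for all promoters. The NF-kB motif GGANNTTCC was in 0 of 33 member promoters and in 4.66% of those of genes tested, CCAAT in 57.6% and 38.1%, and TTTGAA, an element of cell cycle genes, in 3.03% and 12.2%. These are matches of letters, not sites of binding.

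Among the checkpoint kinases, Chek2 fell with poly(I:C) where Atm, its activating kinase, rose. Chek2 read 18.6, 17.4, 18.5, 19.3 and 19.8 CPM in control, 5.53, 3.97, 4.03, 3.999 and 4.51 CPM with CL075 and 2.73, 2.08, 1.81, 2.17 and 1.90 CPM with poly(I:C). The groups stepped down without overlap, by 4.27-fold with CL075 (-2.09, standard error 0.09, adjusted p = 2.1e-13 by edgeR) and 8.74-fold with poly(I:C) (-3.13, standard error 0.10, adjusted p = 1.8e-15), and poly(I:C) against CL075, the direction in which differences between the ligands are signed throughout, gave -1.03, standard error 0.12, adjusted p = 2.2e-07. Atr averaged 18.8 ± 1.19 CPM in control, 19.4 ± 2.11 with CL075 and 17.4 ± 1.28 with poly(I:C), and its groups overlapped. Chek1, the kinase downstream of ATR, ranged over 1.18 to 2.11 CPM in control, 0.529 to 1.49 in CL075 and 0.822 to 0.987 in poly(I:C) libraries. It was called lower with both ligands (-0.94, adjusted p = 0.0012 with poly(I:C), -1.05, adjusted p = 0.00032 with CL075), although CL075 replicate 1 lay within the control range.

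The checkpoint mediators fell with poly(I:C) and were not called with CL075. Trp53bp1, which shields broken ends from resection, averaged 33.2 ± 1.35 CPM in control, 26.1 ± 2.23 with CL075 (-0.35) and 13.6 ± 1.99 with poly(I:C) (-1.28, adjusted p = 3.2e-11 by edgeR). Mdc1, which binds phosphorylated histone H2AX, averaged 42.8 ± 1.20 CPM, 36.5 ± 3.46 (-0.23) and 18.5 ± 1.03 (-1.21, adjusted p = 1.2e-12) in the same order. In both genes all poly(I:C) libraries were below all CL075 libraries, with -0.94 for Trp53bp1 and -0.985 for Mdc1, and both differences were called.

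The subunits of the MRN complex, which senses broken ends, did not move together with poly(I:C). Mre11a, its nuclease, read 19.7, 19.1, 20.5, 20.1 and 18.4 CPM in control, 16.9, 16.4, 16.2, 15.2 and 17.9 CPM with CL075 and 31.8, 31.2, 38.7, 33.9 and 33.4 CPM with poly(I:C) (0.79, standard error 0.06, adjusted p = 4.5e-10 by edgeR). Rad50, its ATPase, read 40.5, 36.1, 40.6, 39.6 and 37.9 CPM in control, 32.2, 28.8, 27.6, 24.3 and 28.98 CPM with CL075 and 17.1, 12.7, 15.2, 14.97 and 13.6 CPM with poly(I:C) (-1.40, standard error 0.08, adjusted p = 3.6e-12). With poly(I:C) all Mre11a libraries were above control and all Rad50 libraries below, while the CL075 values of both were below control by less than 1.5-fold (-0.24 and -0.46). Nbn, the subunit that binds ATM, averaged 13.1 ± 1.05 CPM in control and 13.6 ± 1.66 with poly(I:C), with overlapping groups, and 17.2 ± 0.616 with CL075, where every library was above control but by 1.31-fold. The rise of Mre11a was not called on the upper-quartile (0.47), Hprt (0.24) or library total scale.

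Homologous recombination copies an intact sister sequence, and of its 8 members 6 fell and Bard1 rose with poly(I:C). With CL075, 6 of the 8 fell. The share lower was 75.0% with each ligand, against 30.5% of all genes with poly(I:C) and 21.5% with CL075. Role groups are small, so their shares are rough. Brca2, a mediator of strand exchange, read 7.45, 5.47, 6.42, 6.20 and 6.74 CPM in control, 3.06, 2.48, 2.08, 1.83 and 2.48 CPM with CL075 and 1.37, 0.986, 1.10, 1.18 and 0.995 CPM with poly(I:C). Its groups were separate (-1.44, standard error 0.12, adjusted p = 3.2e-09 with CL075 and -2.52, standard error 0.14, adjusted p = 6.0e-12 with poly(I:C), by edgeR), and poly(I:C) was below CL075 (-1.08, adjusted p = 6.4e-06). Brca1 averaged 17.1 ± 1.01 CPM in control, 6.60 ± 0.858 after poly(I:C) (-1.37) and 7.29 ± 0.757 after CL075 (-1.23), so Bard1 rose with poly(I:C) where its partner fell. Palb2, the bridge between BRCA1 and BRCA2, fell with each ligand (-1.36 and -1.29). The difference between the ligands was -0.13 (standard error 0.09) for Brca1 and -0.07 (standard error 0.12) for Palb2, and neither was called.

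The other recombination genes differed in which ligand lowered them. Xrcc3, which acts in strand exchange, ranged over 1.46 to 2.15 CPM in control, 0.330 to 0.571 in CL075 (-1.89) and 0.216 to 0.471 in poly(I:C) libraries (-2.38) and was called lower with both. Xrcc2, which acts in the same step, averaged 3.92 ± 0.319 CPM in control and 4.77 ± 0.904 with CL075 (0.28, not called), and fell to 2.47 ± 0.477 with poly(I:C) (-0.67, adjusted p = 0.00036 by edgeR), a call that was lost without poly(I:C) replicate 5 (-0.58). Rad54l, a motor protein that aids strand invasion, was called with CL075 and not with poly(I:C). It averaged 5.31 ± 0.423 CPM in control and 5.04 ± 0.341 with poly(I:C), fell to 2.43 ± 0.336 with CL075 (-1.12, adjusted p = 7.1e-09), and differed between the ligands by 1.05, adjusted p = 3.0e-08. On other scales Rad54l was also called lower with poly(I:C) (-0.62 with Hprt and -1.01 with library totals), and its difference between the ligands was not called with library totals (0.46). Rad52, a strand annealing protein, was just past the fold threshold with poly(I:C) (-0.60) and lost its call without control replicate 1 (-0.58), poly(I:C) replicate 1 (-0.53) or poly(I:C) replicate 4 (-0.56).

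The RecQ helicases, which unwind unusual DNA structures, parted with poly(I:C). Wrn, the helicase lost in human Werner syndrome, read 43.8, 38.3, 42.2, 42.2 and 41.7 CPM in control, 36.2, 38.2, 38.8, 35.0 and 36.97 CPM with CL075 and 97.3, 99.95, 103, 96.5 and 94.2 CPM with poly(I:C). Its poly(I:C) libraries were far above the others (1.24, standard error 0.04, adjusted p = 5.9e-15 by edgeR), and its CL075 libraries overlapped control (-0.17, not called). Blm went from 7.32 ± 0.108 CPM in control to 4.67 ± 0.498 with poly(I:C) (-0.65, adjusted p = 9.1e-07), and was at 5.53 ± 0.574 with CL075 (-0.41, not called). The call of Blm with poly(I:C) was lost with RLE size factors (-0.58) and when the test was against a 1.5-fold change (glmTreat, adjusted p = 0.16). With TMM the split between Wrn and Blm thus rests on a fall near the threshold. On the upper-quartile, Hprt and library total scales Blm was called lower (-0.97, -1.20 and -1.59), while Wrn was not called with library totals (0.30).

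Fancd2, the partner of FANCI, parted from Fanca and Fanci with poly(I:C). It fell from 5.80 ± 0.559 CPM in control to 3.16 ± 0.503 with poly(I:C) (-0.87, adjusted p = 1.1e-06 by edgeR) and to 3.30 ± 0.434 with CL075 (-0.82, adjusted p = 2.0e-06). All 3 Fanconi anemia members fell with CL075, against 21.5% of all genes. The ligands differed by -0.06 (standard error 0.12, not called) for Fancd2, against 1.66 (standard error 0.10) for Fanci and 3.01 (standard error 0.10) for Fanca.

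In end joining, Prkdc and Xrcc6 of the DNA-PK complex fell and Xrcc4 rose with poly(I:C). Prkdc, the catalytic subunit, read 29.3, 27.6, 30.01, 27.8 and 26.1 CPM in control, 14.3, 11.2, 11.2, 8.88 and 12.7 CPM with CL075 (-1.27, adjusted p = 3.3e-10 by edgeR) and 7.85, 7.72, 9.21, 7.96 and 9.21 CPM with poly(I:C) (-1.74, adjusted p = 3.9e-12). Xrcc6, the Ku70 subunit that caps ends, averaged 9.41 ± 0.434 CPM in control, 4.91 ± 0.506 with CL075 (-0.94) and 3.004 ± 0.212 with poly(I:C) (-1.65). Both were lower with each ligand than in control without overlap, and for Xrcc6 the poly(I:C) libraries were also below the CL075 libraries (-0.71, adjusted p = 7.2e-07). Xrcc5, the Ku80 subunit, ranged over 0.433 to 0.836 CPM in control and was called lower with CL075 (-0.74, standard error 0.26, adjusted p = 0.014) but not with poly(I:C) (-0.37, standard error 0.26), and the CL075 call was lost without the hemoglobin libraries (-0.73). Xrcc4, the scaffold of the ligase, rose from 12.3 ± 1.56 to 23.2 ± 1.73 CPM with poly(I:C) (0.92, standard error 0.08, adjusted p = 2.4e-09), while Lig4, the ligase it binds, was called with neither (-0.27 and -0.14). These calls depended on the scale. With upper-quartile factors, Hprt and library totals, Lig4 (-0.60, -0.83 and -1.21) and Xrcc5 (-0.70, -0.93 and -1.305) were called lower with poly(I:C). The rise of Xrcc4 was not called with Hprt (0.37) or library totals (-0.0176).

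All 4 members of base excision and single-strand break repair fell with poly(I:C), and Ogg1 and Ung also fell with CL075. Of all genes, 30.5% fell with poly(I:C) and 21.5% with CL075. Ogg1, the glycosylase for oxidized guanine, read 5.27, 4.83, 5.04, 5.40 and 5.92 CPM in control, 3.96, 3.41, 2.74, 3.41 and 3.43 CPM with CL075 (-0.65, adjusted p = 1.5e-05 by edgeR) and 1.11, 0.931, 1.53, 1.27 and 1.30 CPM with poly(I:C) (-2.10, adjusted p = 1.5e-11). Its groups did not overlap, though the CL075 call was lost without CL075 replicate 3 (-0.58) and without the hemoglobin libraries (-0.56). Lig3, a ligase of single-strand break repair, read 26.1, 30.6, 28.5, 27.9 and 25.8 CPM in control, 37.7, 34.7, 35.7, 29.2 and 36.1 CPM with CL075 and 12.9, 11.9, 12.4, 10.2 and 12.1 CPM with poly(I:C). It fell with poly(I:C) (-1.22, adjusted p = 2.4e-11), its CL075 libraries lay within or above the control range and were not called (0.32, adjusted p = 0.00038), and the ligands differed by -1.54, standard error 0.08, adjusted p = 1.0e-12. Xrcc1, the scaffold that binds LIG3, was near the threshold with poly(I:C) (-0.61) and lost its call without control replicate 1 (-0.57) or 5 (-0.56), without poly(I:C) replicate 1 (-0.58), 2 (-0.58) or 3 (-0.56), and without the hemoglobin libraries (-0.55).

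Ung, the glycosylase that removes uracil from DNA, had few reads. Its counts were 17, 18, 30, 11 and 22 in control, 2, 5, 2, 3 and 7 with CL075 and 5, 0, 2, 0 and 1 with poly(I:C). All treated libraries were below all control libraries (-1.98, standard error 0.42, adjusted p = 0.00032 with CL075 and -2.65, standard error 0.52, adjusted p = 0.00012 with poly(I:C), by edgeR). The poly(I:C) value was -3.68 without poly(I:C) replicate 1, which held most of the group's counts.

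Nucleotide excision repair removes bulky lesions, and of its 4 members Xpc, the sensor of distorted DNA, was the one called. Xpc read 30.6, 27.9, 29.2, 26.96 and 32.9 CPM in control, 11.9, 11.1, 10.9, 9.65 and 10.96 CPM with CL075 and 6.08, 4.66, 4.77, 5.46 and 5.28 CPM with poly(I:C). It fell 2.71-fold with CL075 (-1.44, standard error 0.07, adjusted p = 1.6e-12 by edgeR) and 5.61-fold with poly(I:C) (-2.49, standard error 0.08, adjusted p = 1.0e-15), with all groups apart. Xpa, which verifies the lesion, was below control in every treated library, though under the fold threshold (-0.41 with poly(I:C), -0.37 with CL075). Ercc1, a subunit of a nuclease that cuts beside the lesion, was at 0.13 and 0.28, and Ercc2, a helicase of TFIIH, at -0.43 and 0.09, each with treated libraries that overlapped control. Other scales changed these calls. With upper-quartile factors, Hprt and library totals, Ercc2 (-0.76, -0.98 and -1.37) and Xpa (-0.74, -0.97 and -1.35) were called lower with poly(I:C). Ercc1 was called lower with poly(I:C) on library totals (-0.81). Xpa was called lower with CL075 on Hprt (-0.66) and library totals (-0.72).

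In mismatch repair, Msh6 fell with poly(I:C) where Msh3 rose. MSH6 detects base mismatches, as MSH3 does loops. Msh6 read 24.5, 23.6, 23.9, 23.1 and 23.6 CPM in control, 11.6, 12.01, 10.2, 9.72 and 11.1 CPM with CL075 (-1.12, standard error 0.06, adjusted p = 2.4e-12 by edgeR) and 7.29, 7.34, 8.11, 7.44 and 7.31 CPM with poly(I:C) (-1.66, standard error 0.06, adjusted p = 7.1e-15). Its poly(I:C) libraries were the lowest of the groups, whereas those of Msh3 were the highest. Pms2, a subunit of the MutL endonuclease, went from 7.96 ± 0.565 to 3.29 ± 0.565 CPM with poly(I:C) (-1.27, adjusted p = 1.6e-09) and stood at 5.56 ± 0.582 with CL075 (-0.52, not called). All 4 other mismatch repair genes tested were lower with each ligand, against 30.5% of all genes with poly(I:C) and 21.5% with CL075.

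Levels per length, in TPM, were reordered by the treatments. In control cells the median of the 38 genes was 8.17 TPM, and the highest were Rad50 at 24.3 ± 1.31 TPM and Chek2 at 23.1 ± 1.36 TPM, whose library ranges overlapped, followed by Wrn at 18.9 ± 1.06. Ung was the lowest at 0.654 ± 0.229 TPM. With CL075 the median was 3.39 TPM and Nbn came first at 17.2 ± 1.20, and with poly(I:C) the median was 2.53 TPM and Atm came first at 27.3 ± 1.52, followed by Wrn at 24.7 ± 0.610 and Mre11a at 10.3 ± 0.925. Atm held place 18 in control and 26 with CL075, and Chek2 place 2 in control, 18 with CL075 and 27 with poly(I:C). Library ranges overlapped in 33 of 37 neighbouring pairs in control, 34 with CL075 and 33 with poly(I:C), so most neighbouring places were not separated. TPM has the same sum in every library and so follows the scale of library totals, on which Mre11a stood at 10.8 ± 0.413 TPM in control.

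**Figure D4:**
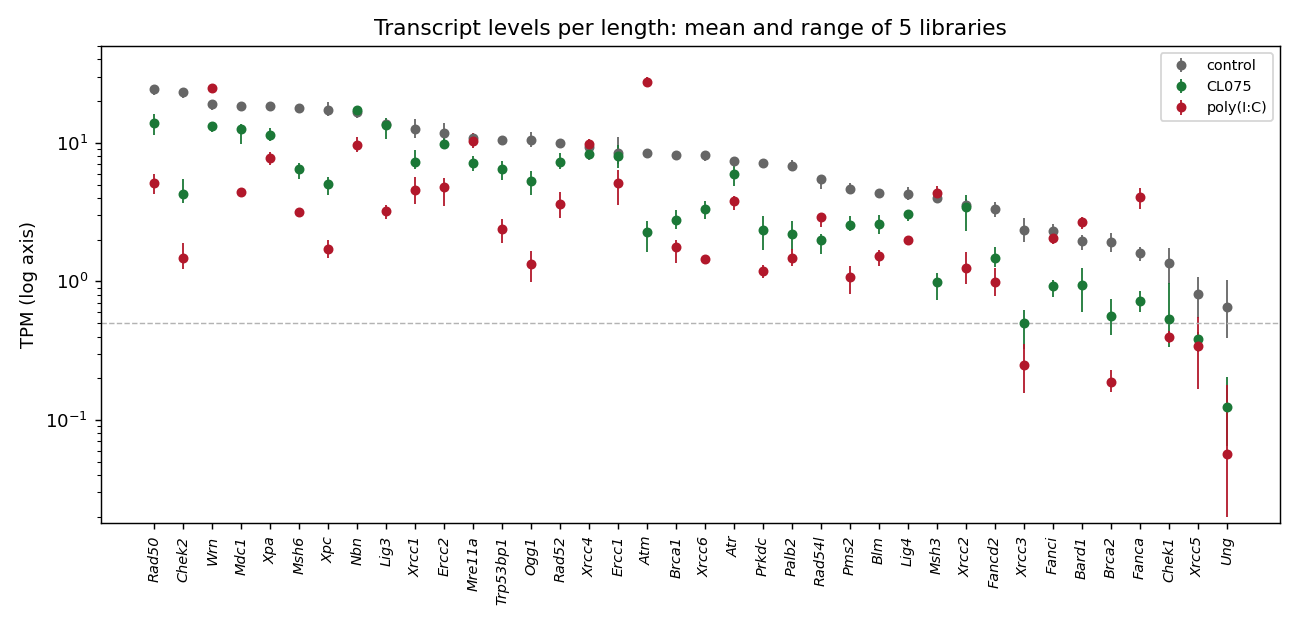
TPM (y axis, log scale) of the 38 genes in control, CL075 and poly(I:C) cells, ordered by the control mean, with points for means and lines for the range of 5 libraries (a library at 0 is drawn to the bottom edge) and a dashed line at 0.5 TPM. With poly(I:C) Atm, at 27.3 TPM on average, was above every other member.

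Repair and checkpoint genes outside the set also fell more often than they rose. After poly(I:C), 15 of 140 tested rose (10.7%, against 25.4% of all genes) and 65 fell (46.4%, against 30.5%), with a median of -0.50. After CL075, 8 rose (5.71%, against 17.6%) and 53 fell (37.9%, against 21.5%), with a median of -0.28. Timeless, which stabilizes replication forks, went from 7.33 ± 0.795 to 48.5 ± 0.737 CPM with poly(I:C) (2.73), and Smc5, of the SMC5/6 complex, from 37.8 ± 1.998 to 237 ± 15.4 CPM (2.65), and neither was called with CL075. Rbbp8, which starts end resection with MRE11, rose with poly(I:C) (2.01; not called with CL075 at 0.36). Wee1, a kinase that delays mitosis, rose with poly(I:C) (1.92) and fell with CL075 (-0.67), as Atm did.

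Other repair genes fell with both ligands or with one. Dna2, a resection nuclease, fell with poly(I:C) (-2.33) and CL075 (-2.71), and so did Fancm, a translocase at stalled forks (-2.08 and -1.98). Rev3l, the catalytic subunit of a translesion polymerase, fell with poly(I:C) (-2.10) and was not called with CL075 (-0.41), with a difference of -1.68 between the ligands. Mbd4, a glycosylase at methylated sites, fell more with CL075 (-2.38) than with poly(I:C) (-0.73), a difference of 1.64, adjusted p = 4.8e-11 by edgeR. Among the genes that rose with CL075, Tdg, a thymine glycosylase (1.01 with poly(I:C), 0.999 with CL075), and Ube2n, a ubiquitin-conjugating enzyme (0.69 and 0.63), rose with both. Cdc25a, a cell cycle phosphatase, fell with poly(I:C) (-0.61) and rose with CL075 (0.96), and Polm, an end joining polymerase, rose with CL075 (0.64) and was at 0.03 with poly(I:C).

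DNA replication genes and proliferation markers are given beside the repair genes because they share expression in dividing cells. After poly(I:C), 12 of 40 replication genes rose and 14 fell, which is 30.0% and 35.0%, near the 25.4% and 30.5% of all genes. After CL075, 0 rose and 20 fell, the latter 50.0% against 21.5% of all genes. Pcna, the sliding clamp, went from 132 ± 13.3 to 559 ± 61.1 CPM with poly(I:C) (2.085). Mcm6, of the replicative helicase (1.83), and Rfc3, of the clamp loader (2.47), also rose, while Pole2, a polymerase subunit, fell with both ligands (-2.86 and -1.92). Among 16 proliferation markers, 2 rose and 10 fell after poly(I:C), against 0 and 1 after CL075, so 62.5% fell after poly(I:C) against 30.5% of all genes, and 6.25% after CL075 against 21.5%. Their summed level ranged over 408 to 492 CPM in control, 350.5 to 424 in CL075 and 261 to 301 in poly(I:C) cells. Mki67 (-0.69), Top2a (-1.06) and E2f1 (-1.84) fell with poly(I:C), Ccne1, a cyclin of S phase entry, rose (2.83), and Aurkb, a mitotic kinase, was the marker called with CL075 (-0.95). The part of cell division in the repair gene results was not tested.

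Targets of p53, a transcription factor that ATM and CHEK2 activate, were called in both directions. Poly(I:C) raised 3 of 15 tested and lowered 5, which is 20.0% and 33.3%, near the 25.4% and 30.5% of all genes. CL075 raised 5 (33.3%, against 17.6%) and lowered 6 (40.0%, against 21.5%). Mdm2, which degrades p53 (3.16 with poly(I:C), 0.85 with CL075), Cdkn1a, the p21 inhibitor of cyclin-dependent kinases (2.59 and 0.92), and Plk2 (3.63 and 0.69) rose with both, and Sesn1 fell with both (-4.59 and -2.31). Gadd45a, a stress-induced gene, fell with poly(I:C) (-0.64) and rose with CL075 (1.66). Trp53inp1 fell with CL075 (-2.83) and was not called with poly(I:C) (-0.23).

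Some members share exon bases with a gene on the opposite strand, and since no source used here states whether counting used strand, reads of the 2 genes may be mixed. In GENCODE vM21 the overlap was 25.1% of exon bases for Lig3 (with Rffl), 24.6% for Ercc2 (with Gm26852), 15.9% for Fanci (with Polg), 15.4% for Rad54l (with Lrrc41), 15.04% for Trp53bp1 (with Tubgcp4), 10.6% for Ogg1 (with Camk1) and 10.5% for Fanca (with Zfp276). For Atm, Bard1, Brca1, Chek2, Wrn, Xpc and Prkdc none was found.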

How the data were processed

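RNA of 15 BMDM libraries (5 per group) was sequenced by the authors from one end with a stranded mRNA kit, and trimmed reads were mapped to GRCm38 (GRCm38.p6 in the submitters' processing notes) with CLC Genomics Workbench. The deposited tables give raw read counts per gene and TPM, which the authors scaled by gene length and library. HISAT2, featureCounts and edgeR, whose use is named without versions, served the authors for other lists. The authors' own fold changes, p-values and gene lists were not used, nor were 20 RPKM columns.

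The count matrix was fitted once over the 3 groups with edgeR 4.0.16 (R 4.3.3), using filterByExpr (11804 of 25814 genes), TMM, the quasi-likelihood test and Benjamini-Hochberg adjustment over all genes. The standard error of a log2 fold change was taken from the root of the F statistic and can understate counting error where counts are few, as for Ung. CPM are TMM-normalized. The fit was tested on simulated data in which far fewer genes changed than here, in random directions. That test therefore does not bear on the scale of the libraries. Alternatives were other scales, DESeq2 1.42.0, other filters and thresholds, a replicate block, and libraries left out. The members and lists were chosen with earlier results of these data known. All members could be named. Other repair genes were named by the 4 largest called folds in each direction and comparison with control among genes averaging at least 5 CPM, and replication, proliferation and p53 genes by the 2 highest mean CPM and the largest called fold in each direction. Some genes that this rule names are not reported here.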

Additional observations from a re-analysis of the deposited data

Results flagged for a closer look

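In 8 of 114 groups of 5 libraries, 1 library lay far from the other 4 by Dixon's test, where chance gives about 5.7. With CL075, Chek1 read 1.49 CPM in replicate 1 against 0.529 to 0.742 in the others, Mdc1 30.5 in replicate 4 against 36.7 to 38.9, and Xrcc1 8.57 in replicate 5 against 6.47 to 7.01. In control cells, Rad54l read 4.57 in replicate 2 against 5.37 to 5.59, Xrcc6 8.66 in replicate 4 against 9.47 to 9.75, and Xpa 9.38 in replicate 5 against 10.3 to 10.6. With poly(I:C), Rad54l read 4.44 in replicate 2 against 5.12 to 5.27, and Msh6 8.11 in replicate 3 against 7.29 to 7.44. Leaving out any 1 of these libraries did not turn the direction of a call among the members.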

How the results depend on the processing

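The number of members higher with poly(I:C) went from 8 to 2 with library totals as the scale and to 4 with Hprt. Members lower in poly(I:C) than in CL075 cells went from 11 to 26 with library totals, 17 with Hprt and 17 without a fold threshold, and members higher with CL075 from 0 to 3 without a fold threshold. The split of higher against lower members with poly(I:C) was 8 to 22 with TMM and 2 to 30 with library totals, and that of poly(I:C) against CL075 was 9 to 11 and 6 to 26. With library totals the log2 fold change with poly(I:C) turned for Mre11a (-0.15), Nbn (-0.88), Fanci (-0.25), Xrcc4 (-0.0176) and Ercc1 (-0.81). These turns follow from the gap between the normalization factors of control and poly(I:C) libraries. The cause of that gap was not tested. Xrcc5, Lig4, Ercc2 and Xpa were not called with TMM for poly(I:C) but were called lower with upper-quartile factors and with Hprt. Atr and Rad54l were also called lower with Hprt. Leaving out each library in turn gave 8 to 8 members higher and 20 to 22 lower with poly(I:C), 0 to 0 and 19 to 20 with CL075, and 9 to 9 and 11 to 12 between the ligands. Leaving out the 3 libraries with hemoglobin counts, chosen after seeing the data, gave 8 and 21, 0 and 17, and 9 and 12. DESeq2 gave 8 and 20, 0 and 20, and 9 and 11, and RLE size factors 8 and 19, 0 and 20, and 9 and 11. A test against a 1.5-fold change (glmTreat) gave 7 and 18, 0 and 17, and 9 and 9, without Fanci, Rad52, Xrcc1, Xrcc2 and Blm for poly(I:C) and Bard1, Ogg1 and Xrcc5 for CL075.

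Same-numbered libraries correlated in their deviations from the group means with r from -0.0041 to 0.324 (median 0.224, 14 of 15 pairs over 0.1), against a median of -0.0468 for the 60 pairs of different numbers, and 13 of 15 libraries correlated best with their own number. These values hint at a pairing, and the deposited library names repeat the prefixes WT1 to WT5 in each group. The labels do not say what a number marks and 1 pair fell short of 0.1, so the fit without a block was kept. With the replicate number as a block, 8 and 22, 0 and 20, and 9 and 11 members were called, and no member's call changed. When only the groups compared were in the fit, Xrcc3 and Ung were not tested between the ligands. Depth limited Ung, Xrcc5, Xrcc3 and Chek1, which had the fewest counts.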

Other observations

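Several members start close to a gene on the opposite strand, a comparison chosen after the values were seen. Protein-coding genes on the opposite strand with a start within 1000 bases of a member's start numbered 16, of which 15 were tested. With poly(I:C), 5 of the 15 pairs were called in the same direction, 1 in opposite directions, in 7 the member alone was called and in 2 neither. With CL075, 6 pairs were lower together, in 4 the member alone was called, in 2 the neighbour alone and in 3 neither. Among all genes tested, poly(I:C) raised 25.4% and lowered 30.5%, while CL075 raised 17.6% and lowered 21.5%. How often other pairs of genes share a call was not counted. The pair counts therefore do not tell whether neighbours follow members more than other genes do. Npat, 307 bases from Atm, rose with poly(I:C) (0.72, standard error 0.07, adjusted p = 1.9e-08 by edgeR) and fell with CL075 (-0.66, standard error 0.07, adjusted p = 1.5e-07), in the directions of Atm. Hscb fell beside Chek2 (-1.42 with poly(I:C), -1.54 with CL075), and Nbr1 beside Brca1 (-1.29 and -0.80). Other neighbours did not follow. Purg, beside Wrn, fell with poly(I:C) (-0.75) where Wrn rose, and Lsm3, 40 bases from Xpc, was not called (0.36) where Xpc fell. The calls of neighbours were made with TMM alone.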
